A study of Mus musculus with 12 samples.

Results

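NewGene loci are the entries of the deposited heart count table that carry a running number in place of an Ensembl gene identifier. The loci described here are those with at least 10 counts in at least 3 of the 12 hearts, which holds for 1375 of 3135 NewGene loci (43.9%) and compares with 25171 loci in the whole table. The members were chosen by their counts in these same hearts, so that their detection is a description and was not tested. Hearts of 2 mouse models were sequenced, with 3 animals in each of 4 groups. All groups carried a conditional transgene at Rosa26, in which a stop sequence between loxP sites precedes NOTCH2NLC with 98 GGC repeats. EIIa-tg mice carried EIIa-Cre, which acts in all tissues, and were 30 days old, as were the control mice without Cre (EIIa-ctl). Myh6-tg and Myh6-ctl mice carried Myh6-creERT2, a Cre made under a cardiomyocyte promoter and active only with tamoxifen, and were 90 days old. Myh6-tg mice received tamoxifen and Myh6-ctl mice corn oil, in 3 injections of 75 mg/kg from day 60. The labels of EIIa-tg replicates 2 and 3 name other genotypes than replicate 1, and these hearts were placed by their titles.

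Transcript assembly programs join mapped reads into transcripts and list those that match no annotated gene as new loci. Of the 13374 lncRNA genes of the GENCODE M21 annotation, 6 were matched by identifier among the loci used here, so that NewGene means a locus listed without an Ensembl identifier and not necessarily one missing from every annotation. In general such loci can be non-coding RNAs, exons or extended ends of known genes, transcribed repeats or parts of an inserted construct. How the authors built and numbered the NewGene loci, and where they lie in the genome, is not given in the sources used here, so that no position, strand or sequence is shown and the genes around them are unknown. Lengths were therefore taken from the files themselves, as the ratio of counts to FPKM (fragments scaled to length and to the fragments of the heart). For 14742 annotated genes this implied length had a median ratio of 1.02 to the longest annotated transcript. It had a median of 1250 bases (quartiles 859 and 1964) over the NewGene loci, from 274 to 14325 bases.

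Between 38343106 and 50969834 counts were assigned per heart, and 3 counts correspond to between 0.0568 and 0.0815 normalised CPM (CPM with TMM factors over the 12 hearts, counts divided by the scaled total of each heart), which covers counting error only. The 6 cardiomyocyte markers examined summed to between 8115 and 41854 normalised CPM and the 5 neuronal markers to between 1.03 and 18.0. The replicate 1 heart of every group held 4224 to 7307 counts on Y-linked genes, and no other heart had more than 2. Esr1, the estrogen receptor gene, had between 53433 and 103037 counts in Myh6-ctl hearts and at most 116 in every other heart, Myh6-tg included. A tamoxifen-dependent Cre contains part of an estrogen receptor, but which reads were counted on Esr1 was not tested, and groups are named by their labels. As these are whole hearts, fewer cells of a type and less RNA per cell cannot be told apart in any value given here.

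Most NewGene loci were weakly transcribed and were detected in only some hearts. Their mean level over the hearts had a median of 0.484 FPKM (quartiles 0.263 and 1.14), against 4.38 FPKM (1.04 and 12.8) for the 14721 protein-coding genes that pass the same limit. A mean of at least 1 FPKM was reached by 393 loci, at least 10 FPKM by 49 and at least 100 FPKM by 4. Of the 1375 loci, 508 (36.9%) had at least 10 counts in all 12 hearts, while 85.0% of the protein-coding genes did. At the other end 134 loci had them in exactly 3 hearts, and 23 loci passed the limit only through a single group, 17 of these through Myh6-tg, 5 through Myh6-ctl and 1 through EIIa-tg. The limit itself cuts through a continuous range. Among the 59 loci whose third-highest count was exactly 10, NewGene_135 ranged from 0 to 21 counts, NewGene_277 from 0 to 15 and NewGene_303 from 0 to 18. Among the 66 loci just outside, whose third-highest count was 9, NewGene_74 ranged from 0 to 22 counts, NewGene_202 from 0 to 14 and NewGene_409 from 0 to 23.

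**Figure D1:**
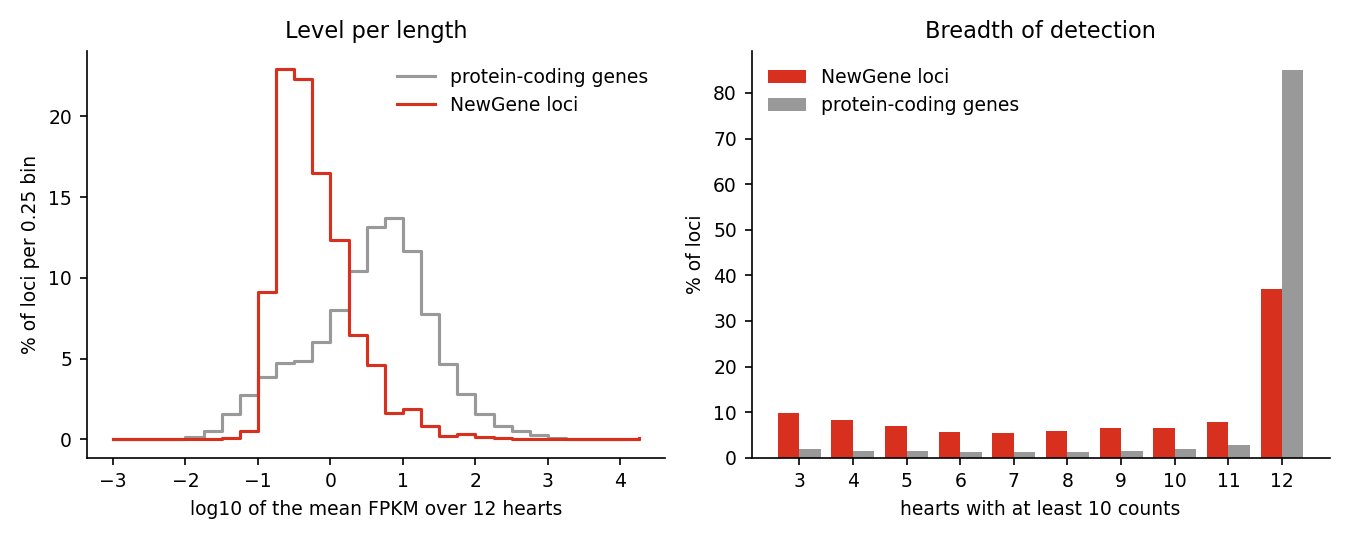
Left, distribution of the mean FPKM over 12 hearts (x axis, log10; y axis, % of loci per bin of 0.25) for the 1375 NewGene loci and the 14721 protein-coding genes with at least 10 counts in at least 3 hearts. Right, % of the same loci (y axis) by the number of hearts with at least 10 counts (x axis), where 36.9% of NewGene loci and 85.0% of protein-coding genes reach 12.

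One locus, NewGene_1278, held 81.4% of all counts on the 1375 loci. It ranked between 2nd and 8th of all loci by counts in every heart, and its implied length was 1307 bases. It took 2.93%, 3.03% and 2.93% of the counts in the 3 EIIa-ctl hearts, 3.09%, 2.93% and 2.56% in EIIa-tg, 3.17%, 3.86% and 2.90% in Myh6-ctl and 1.35%, 1.58% and 1.18% in Myh6-tg hearts. All 3 Myh6-tg hearts thus lay below the other 9, which overlapped. Its level fell in Myh6-tg hearts, with a log2 fold change of -1.68 (SE 0.39, edgeR's quasi-likelihood test, adjusted p = 0.0241), although limma on log2 FPKM gave -1.27 (adjusted p = 0.0933 with a pseudocount of 1 and 0.109 with 0.1), and its value in EIIa-tg hearts was -0.24 (SE 0.23, adjusted p = 0.505).

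The counts on NewGene_1278 followed those of the 13 mt- genes, which encode the mitochondrial subunits of the respiratory chain. Over the 12 hearts Pearson's r of its log2 CPM with the summed mt- counts was 0.99, and between 0.86 and 0.99 with single mt- genes, a description in which all points share library and depth. Per mt- count it had between 7.56% and 10.2% in every heart, although the share of the mt- genes was 17.3% ± 1.62 (SD, n = 3) for Myh6-tg and 35.9% ± 3.56 for Myh6-ctl hearts. The mt- genes had log2 fold changes between -1.88 and -1.19 in the Myh6 comparison. Whether NewGene_1278 lies in the mitochondrial genome was not tested. Neither of the 2 mitochondrial ribosomal RNA genes of GENCODE M21 was matched by identifier among the loci used here.

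Without NewGene_1278 the share of the counts on NewGene loci moved the other way. For all 3135 NewGene loci together it was 3.46% ± 0.055 for EIIa-ctl and 3.47% ± 0.247 for EIIa-tg hearts, and 3.81% ± 0.474 for Myh6-ctl and 2.27% ± 0.246 for Myh6-tg hearts (SD, n = 3). For all but NewGene_1278 it was 0.492% ± 0.00399 for EIIa-ctl and 0.614% ± 0.0774 for EIIa-tg hearts, and 0.501% ± 0.0514 for Myh6-ctl and 0.896% ± 0.136 for Myh6-tg hearts. The share of all NewGene loci was thus 1.54 percentage points lower in Myh6-tg than in Myh6-ctl hearts, and that of the others 0.396 points higher, with no overlap between the groups in either. Both differences had p = 0.1 in a two-sided exact permutation test, the smallest that 3 hearts against 3 allow. With the mt- genes also taken out of the total, the remaining NewGene loci made up 0.759% ± 0.0223 for EIIa-ctl and 0.885% ± 0.0915 for EIIa-tg hearts (exact permutation p = 0.2), and 0.78% ± 0.0402 for Myh6-ctl and 1.08% ± 0.159 for Myh6-tg hearts (exact permutation p = 0.1). Leaving NewGene_1278 out was chosen after its values were seen.

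**Figure D2:**
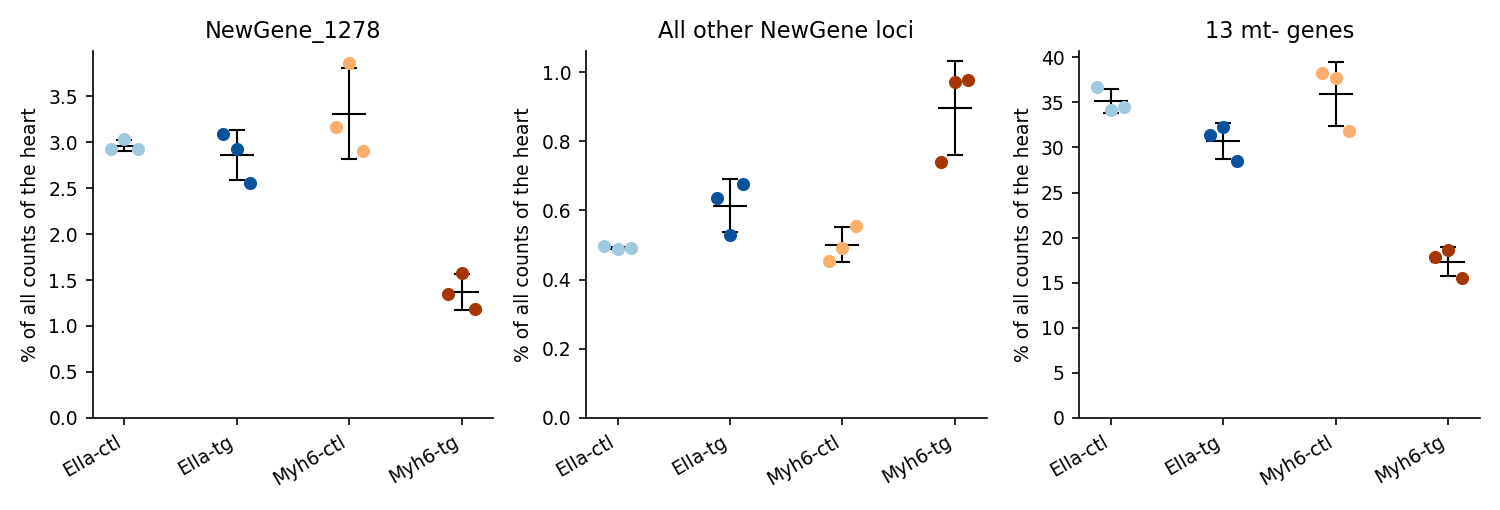
Share of all counts of a heart (y axis, %) on NewGene_1278, on all other NewGene loci and on the 13 mt- genes, by group (x axis). Each point is a heart and the bars are the mean ± SD (n = 3). NewGene_1278 and the mt- genes are lowest in the 3 Myh6-tg hearts, in which the other NewGene loci are highest.

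Apart from NewGene_1278, the 3 highest loci per length were NewGene_5428 with a mean of 271 FPKM, NewGene_6893 with 118 and NewGene_3031 with 106. NewGene_5428 had 809, 720.4 and 825 normalised CPM in EIIa-ctl, 505, 653 and 424 in EIIa-tg, 579.5, 707 and 542 in Myh6-ctl and 293, 204 and 159 in Myh6-tg hearts. It fell in Myh6-tg hearts with no overlap (log2 fold change -1.48, SE 0.27, adjusted p = 0.0125). NewGene_6893 ranged from 58.4 to 129 normalised CPM over the 12 hearts and rose by less than 2-fold in each model (log2 fold change 0.48, SE 0.11, adjusted p = 0.0281 in EIIa-tg; 0.7, SE 0.19, adjusted p = 0.0389 in Myh6-tg). NewGene_3031, from 77.7 to 145, rose in EIIa-tg hearts (0.29, SE 0.08, adjusted p = 0.0484, but 0.0676 without a filter on low counts) and had 0.49 (SE 0.21, adjusted p = 0.149, but 0.0274 and 0.0258 in limma with pseudocounts of 1 and 0.1) in Myh6-tg hearts. NewGene_57, with a mean of 81 FPKM, had between 269 and 391 normalised CPM in 8 of the 9 other hearts and 82.5, 193 and 166 in Myh6-tg hearts (log2 fold change -0.79, SE 0.34, adjusted p = 0.142). NewGene_1347 (8415 bases by its implied length) fell in each model by less than 2-fold, its log2 fold changes being -0.54 (SE 0.13, adjusted p = 0.0318) in EIIa-tg and -0.93 (SE 0.21, adjusted p = 0.0233) in Myh6-tg hearts. On log2 FPKM neither fall passed limma with a pseudocount of 1 (adjusted p = 0.0512 and 0.0923), nor did that in Myh6-tg hearts with 0.1 (0.0916).

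A group of abundant NewGene loci rose in both models. NewGene_560 had 30.8, 31.1 and 19.8 normalised CPM in EIIa-ctl, 259.7, 52.7 and 247 in EIIa-tg, 81.8, 65.3 and 144 in Myh6-ctl and 624, 780.3 and 786 in Myh6-tg hearts. Transgenic hearts were above their own controls throughout, with EIIa-tg replicate 2 nearest to them. The log2 fold changes were 2.77 (SE 0.52, adjusted p = 0.0192) in EIIa-tg and 2.91 (SE 0.34, adjusted p = 0.00337) in Myh6-tg hearts.

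NewGene_6568 behaved alike, at 9.86, 13.3 and 8.21 normalised CPM in EIIa-ctl, 106, 29.2 and 113 in EIIa-tg, 26.1, 38.6 and 86 in Myh6-ctl and 739.7, 765 and 460.2 in Myh6-tg hearts. Its log2 fold changes were 2.98 (SE 0.46, adjusted p = 0.0166) and 3.70 (SE 0.49, adjusted p = 0.00473). NewGene_6866 had between 3.99 and 8.52 normalised CPM in EIIa-ctl, 114, 20.7 and 111 in EIIa-tg, between 20.4 and 37.3 in Myh6-ctl and between 311 and 369.7 in Myh6-tg hearts. It rose by 3.66 (SE 0.61, adjusted p = 0.0166) and 3.51 (SE 0.27, adjusted p = 0.00116) on the log2 scale. NewGene_7355 rose by 1.91 (SE 0.42, adjusted p = 0.026) and 2.19 (SE 0.28, adjusted p = 0.00456). In all 4 loci EIIa-tg replicate 2 was the lowest transgenic heart of its model. That heart also had the most Myh6, the cardiac myosin heavy chain gene, in its group, with 8993 normalised CPM against 2393 and 3267 in EIIa-tg replicates 1 and 3. Myh6 had 10439.7 to 13893 in EIIa-ctl, 7203 to 10510.2 in Myh6-ctl and 2903, 878 and 733 in Myh6-tg hearts. Its log2 fold change in EIIa-tg hearts did not pass (-1.34, edgeR, adjusted p = 0.0773), while that in Myh6-tg hearts did (-2.6, adjusted p = 0.0208). Any link of Myh6 to the 4 loci was not tested.

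NewGene_797 and NewGene_831 were as abundant but differed between the models. NewGene_797 had 113, 89 and 128 normalised CPM in EIIa-ctl, 421, 248 and 357 in EIIa-tg, 261, 232 and 285 in Myh6-ctl and 250.5, 192 and 169 in Myh6-tg hearts. It rose in EIIa-tg hearts (log2 fold change 1.63, SE 0.21, adjusted p = 0.0135), while its value in Myh6-tg hearts was -0.35 (SE 0.21, adjusted p = 0.288) with overlap between the groups. NewGene_831 had 205, 150.2 and 164 normalised CPM in EIIa-ctl, 63.5, 88 and 52 in EIIa-tg, 71.4, 66 and 43 in Myh6-ctl and 5.44, 3.71 and 4.26 in Myh6-tg hearts. It fell in both, by 1.35 (SE 0.2, adjusted p = 0.016) in EIIa-tg and by 3.75 (SE 0.27, adjusted p = 0.00102) in Myh6-tg hearts on the log2 scale.

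**Figure D3:**
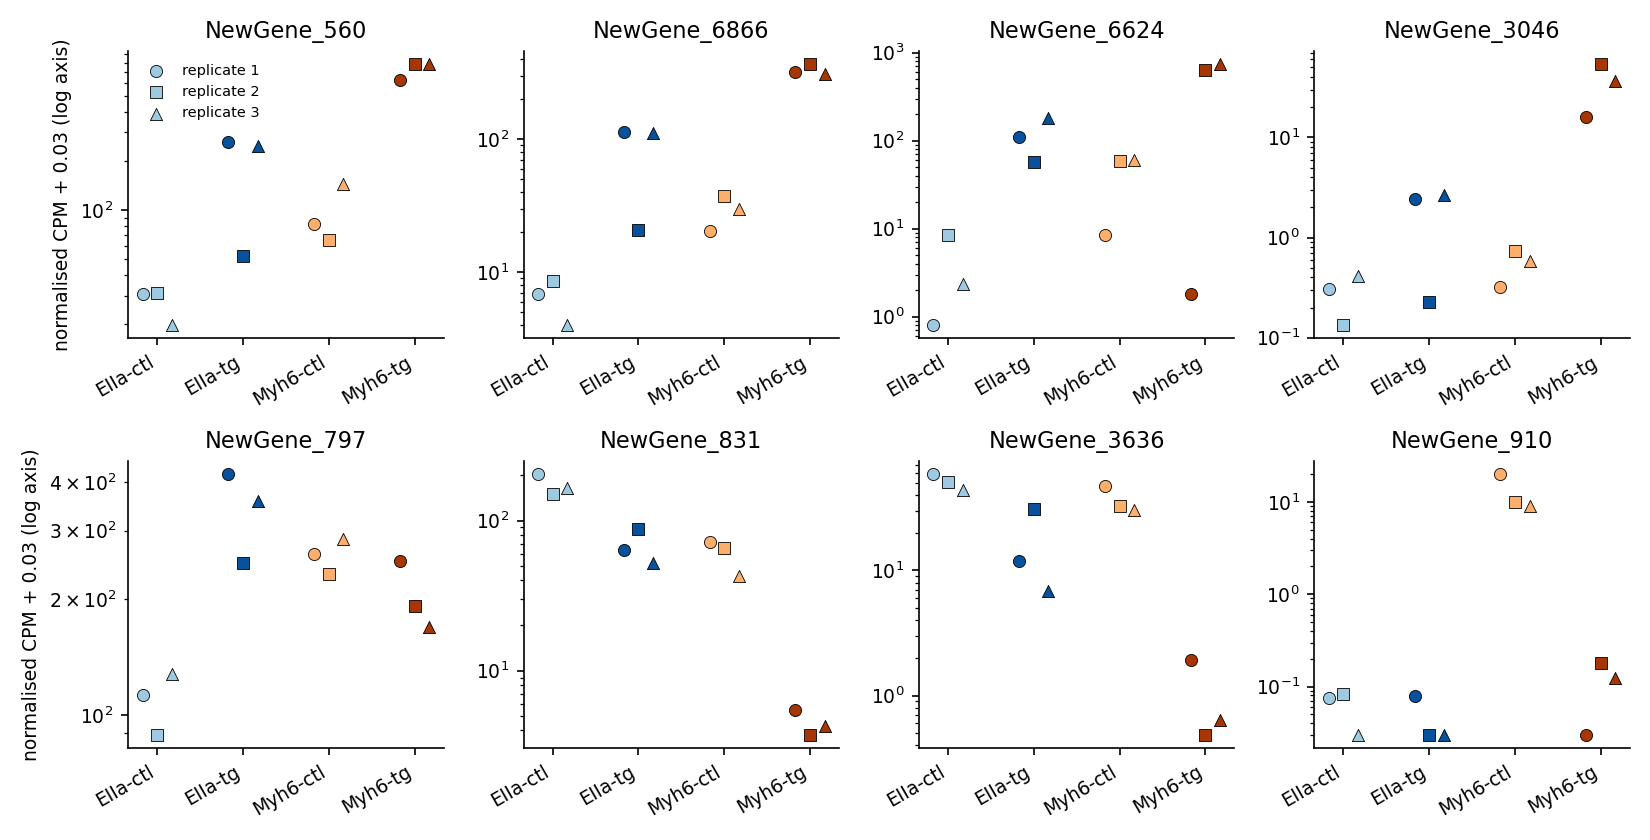
Normalised CPM plus 0.03 (y axis, log scale, a different range in each panel) of 8 NewGene loci in each heart, by group (x axis). Circles, squares and triangles are replicates 1, 2 and 3. NewGene_560, NewGene_6866 and NewGene_3046 are highest in the 3 Myh6-tg hearts, NewGene_6624 is low in Myh6-tg replicate 1, NewGene_831 and NewGene_3636 are lowest in Myh6-tg, and NewGene_910 is high only in Myh6-ctl hearts.

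The first comparison asked which NewGene loci differed in 30-day-old hearts with the ubiquitous transgene. Loci were called when the adjusted p was under 0.01 and the log2 fold change 1 or more, up or down. On these terms edgeR called 0 of the 1021 loci tested, and 0% of all 14908 loci tested. Of the NewGene loci 334 (32.7%) had an unadjusted p under 0.05, against 34.9% of all loci. At the same thresholds DESeq2 called 134 (9.77%, against 4.34% of all loci) and limma on log2 FPKM 0. At an adjusted p under 0.05 edgeR called 142 loci (92 higher, 50 lower), or 13.9% against 5.92% of all loci (3.91% higher, 2.01% lower). The median log2 fold change was 0.02, the same as over all loci. With a mean of at least 1 CPM, a limit chosen after seeing the data, 109 of 534 NewGene loci (20.4%) were called, against 5.92% of the 13078 loci of that level. The count at 0.05 depended on single hearts, as did that over all loci. Without EIIa-tg replicate 2, the transgenic heart nearest to the controls in 109 of the 142, it was 244 of 1132 (1493 of all 15310 loci). It was 0, 0, 1 and 16 without EIIa-tg replicate 1, EIIa-ctl replicates 1 and 3 and EIIa-tg replicate 3 (0, 0, 1 and 113 of all loci).

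Among called loci averaging 1 CPM or more, the largest rises in EIIa-tg hearts were loci that were absent or nearly absent in EIIa-ctl. NewGene_6625 had 0 counts in all 3 EIIa-ctl hearts and 187, 65 and 213 counts in EIIa-tg, which is at least 136-fold higher when 3 counts are allowed over the control group. NewGene_229 (78, 43 and 164 counts in EIIa-tg) and NewGene_3653 (75, 33 and 157) were also at 0 in every EIIa-ctl heart and were at least 83.3-fold and 77.5-fold higher. All 3 passed the adjusted p of 0.05 in edgeR, and NewGene_229 did not in limma with a pseudocount of 1 (0.0601). With the replicate number as a block in edgeR none of the 3 passed (adjusted p = 0.0631 each).

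NewGene_1044 had 0.114, 0.208 and 0 normalised CPM in EIIa-ctl and 8.01, 2.82 and 8.53 in EIIa-tg hearts (log2 fold change 5.84, SE 0.72, adjusted p = 0.0135). NewGene_6624, the longest locus by implied length, had 0.774, 8.36 and 2.34 in EIIa-ctl and 109, 56.9 and 182 in EIIa-tg hearts (4.92, SE 0.78, adjusted p = 0.0166). NewGene_3171, NewGene_228 and NewGene_6391 rose by between 5 and 5.35 on the log2 scale, NewGene_6391 not being called by DESeq2 (adjusted p = 0.0756). In the Myh6 hearts these 8 loci varied within groups. Each was higher in Myh6-ctl replicates 2 and 3 than in replicate 1, and Myh6-tg replicate 1 lay below Myh6-tg replicates 2 and 3 in all 8, at 0 to 1.77 normalised CPM. NewGene_6624, for example, had 8.48, 58.3 and 59.8 normalised CPM in Myh6-ctl and 1.77, 633 and 748 in Myh6-tg hearts (log2 fold change 3.45, SE 1.57, adjusted p = 0.164). None of the 8 passed the test in the Myh6 comparison, in which edgeR gave adjusted p values between 0.153 and 0.981. With the replicate number as a block NewGene_6625 did pass there (log2 fold change 2.51, adjusted p = 0.00434). In the EIIa comparison none of the 8 passed with that block (edgeR, adjusted p between 0.0631 and 0.0867).

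The largest falls in EIIa-tg hearts, among called loci averaging 1 CPM or more without overlap, were smaller. NewGene_122 had 2.71, 2.29 and 2.26 normalised CPM in EIIa-ctl and 0.37, 0.655 and 0.0891 in EIIa-tg hearts (log2 fold change -2.68, SE 0.58, adjusted p = 0.0247). NewGene_4190 had 12.4, 11 and 16.6 in EIIa-ctl and 2.1, 3.81 and 1.47 in EIIa-tg hearts (-2.43, SE 0.34, adjusted p = 0.0147). NewGene_2847 went from 22.2, 12.1 and 14.5 to 2.29, 7.59 and 2.03 (-2.02, SE 0.49, adjusted p = 0.0318). NewGene_591, NewGene_6951, NewGene_372, NewGene_830 and NewGene_638 fell by between 2.04 and 2.33. All 8 also had a negative log2 fold change in Myh6-tg hearts, and 6 of them passed an adjusted p of 0.05 there, NewGene_122 (0.212) and NewGene_591 (0.0516) being the others, while NewGene_638 had 0.0732 with the replicate block and 0.0871 and 0.0716 in limma. In EIIa-tg hearts NewGene_830 had 0.059 in limma with a pseudocount of 0.1. With the replicate block in edgeR none of the 8 falls in EIIa-tg hearts passed (adjusted p between 0.0631 and 0.0833). Markers of other cells moved in the same hearts. All 6 macrophage markers rose in EIIa-tg at an adjusted p under 0.05, with sums of 334 to 512 normalised CPM in EIIa-ctl and 739 to 947 in EIIa-tg hearts, and 2 of 6 fibroblast markers rose. The cardiomyocyte markers summed to 34377 to 41854 and 16506 to 30339.7, 1 of 6 passing as lower. Endothelial markers summed to 853 to 974 and 672 to 738, with 3 of 5 lower, and erythroid markers to 1542 to 2607 and 198 to 1270.2, with 1 of 5 lower. The part of these markers in the NewGene values was not tested.

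The second comparison asked the same of 90-day-old hearts with the transgene induced in cardiomyocytes. Only Myh6-tg mice received tamoxifen, so that effects of tamoxifen, of active Cre and of the transgene cannot be told apart here. With an adjusted p under 0.01 edgeR called 33 of 1107 NewGene loci (12 higher, 21 lower), or 2.98% against 3.97% of all 15298 loci tested (1.92% higher, 2.05% lower). Same-numbered hearts of this comparison deviated together, and with the replicate number as a block 50 loci were called (4.52%, against 6.33% of all loci). Leaving out a heart gave 3, 6 and 5 loci without Myh6-ctl replicates 1, 2 and 3 (0.244%, 0.488% and 0.413%, against 0.163%, 0.484% and 0.359% of all loci). Without Myh6-tg replicates 1, 2 and 3 it gave 108, 10 and 6 (8.61%, 0.827% and 0.499%, against 10.6%, 0.438% and 0.375% of all loci). At an adjusted p under 0.05 there were 179 (66 higher, 113 lower), or 16.2% against 13.1% of all loci (5.66% higher, 7.45% lower). On the authors' FPKM values, limma with a pseudocount of 1 put 72 higher and 49 lower, and with 0.1 it put 173 higher and 144 lower. Over all 15298 loci it called 1825 and 2916. On that scale the median of all loci was shifted by 0.27 and 0.4 on the log2 scale, against 0.03 in edgeR. The median log2 fold change of the NewGene loci was -0.01 in edgeR. Of the 179, 21 had a group with 0 counts in every heart and 10 reached 10 counts in the 3 hearts of their higher group and in no other heart. Without Myh6-tg replicate 1, the heart nearest to the controls in 92 of the 179, the count was 297 of 1255 (2964 of all 15967 loci). It was between 47 and 102 without any other heart (775 to 1441 of all loci). Above a mean of 1 CPM 131 of 535 NewGene loci (24.5%) were called, against 14.1% of the 13088 loci of that level.

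The largest rises in Myh6-tg hearts, again among loci averaging 1 CPM or more, included NewGene_3046. It had 0.294, 0.699 and 0.55 normalised CPM in Myh6-ctl and 15.9, 54.2 and 36.4 in Myh6-tg hearts (log2 fold change 6.11, SE 0.56, adjusted p = 0.00181). In EIIa-ctl hearts it had 0.273, 0.104 and 0.38 and in EIIa-tg hearts 2.42, 0.199 and 2.61, where its log2 fold change of 2.76 (SE 0.9) had an adjusted p of 0.0668. EIIa-tg replicate 2 again lay among the controls. NewGene_6470 had 0 counts in all 6 control hearts, 38, 181 and 181 counts in Myh6-tg and 6, 0 and 14 in EIIa-tg hearts. Outside Myh6-tg only EIIa-tg replicate 3 reached 10 counts, so NewGene_6470 would not have passed the limit without Myh6-tg, and no fold is given for it.

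NewGene_3849 had 0, 0.544 and 0 normalised CPM in Myh6-ctl and 11.1, 3.62 and 2.61 in Myh6-tg hearts (log2 fold change 5.06, SE 1.39, adjusted p = 0.0413), and NewGene_5164 had 0.181, 0.57 and 0.531 against 10.3, 3.82 and 2.97 (3.73, SE 0.66, adjusted p = 0.0112). NewGene_3849 was not called by DESeq2 (4.96, adjusted p = 0.0971). In both loci replicate 1 was the highest of the 3 Myh6-tg hearts. NewGene_3249, by contrast, had 2.2 in Myh6-tg replicate 1 and 38 and 45.5 in replicates 2 and 3, against 0.972, 1.71 and 1.04 in Myh6-ctl hearts (4.53, SE 0.98, adjusted p = 0.0197), and it was as high as 36.2 in an EIIa-tg and 13.7 in an EIIa-ctl heart. NewGene_243 and NewGene_3816 rose by 3.95 and 3.72 on the log2 scale. NewGene_3735 had 34, 193 and 134 counts in Myh6-tg hearts. Outside Myh6-tg only EIIa-tg replicates 1 and 3 reached 10 counts on it, so it needed Myh6-tg to pass the limit, and no fold is given.

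The falls in Myh6-tg hearts included loci that were expressed in all other groups. NewGene_3636 had 59.2, 50.9 and 44.2 normalised CPM in EIIa-ctl, 11.8, 31.1 and 6.84 in EIIa-tg, 47.5, 32.4 and 30.4 in Myh6-ctl and 1.9, 0.456 and 0.606 in Myh6-tg hearts. Its log2 fold changes were -5.22 (SE 0.56, adjusted p = 0.00257) in Myh6-tg and -1.63 (SE 0.47, adjusted p = 0.0486, but 0.0569 in DESeq2) in EIIa-tg hearts. NewGene_7457 had 10.5, 16 and 8.92 in Myh6-ctl and 0.512, 0.412 and 0.265 in Myh6-tg hearts (-4.89, SE 0.39, adjusted p = 0.00123), and fell by 1.12 (SE 0.25, adjusted p = 0.0253) in EIIa-tg hearts. NewGene_3490 and NewGene_3923 likewise fell in both, with log2 fold changes of -4.89 and -4.84 in Myh6-tg and -1.45 and -1.63 in EIIa-tg hearts, the fall of NewGene_3490 in Myh6-tg hearts not being called by DESeq2 (adjusted p = 0.0919), whereas NewGene_3329 fell in Myh6-tg hearts (-5.28, SE 0.97, adjusted p = 0.0124) and had -0.13 (SE 0.35, adjusted p = 0.817) in EIIa-tg hearts.

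NewGene_4838 was at 0 counts in all 3 Myh6-tg hearts and had 125, 123 and 145 counts in Myh6-ctl, which is at least 141-fold lower. It had 659, 474 and 430 counts in EIIa-ctl and 27, 318 and 20 in EIIa-tg hearts, where EIIa-tg replicate 2 was again nearest to the controls and the log2 fold change of -2.37 (SE 0.81) had an adjusted p of 0.077. NewGene_910 had 892, 387 and 476 counts in Myh6-ctl hearts and at most 7 in any other heart, Myh6-tg included. It passed the limit of 10 counts only through Myh6-ctl, so that no fold or test is given for it, though it is counted among the loci called. Its pattern over the 12 hearts was closest to that of Esr1 (r = 0.987). Esr1 had 2330.2, 1383 and 1030.4 normalised CPM in Myh6-ctl and at most 2.52 in every other heart, and its log2 fold change in Myh6-tg hearts was -9.94.

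In Myh6-tg hearts the cardiomyocyte markers summed to between 8115 and 27691 normalised CPM, against 26658 to 34862 in Myh6-ctl, with 3 of 6 lower at an adjusted p under 0.05. Fibroblast markers summed to 3216 to 7918 against 1803 to 2227, with 4 of 6 higher. The 4 atrial markers summed to 4187 to 6523 against 153 to 1816, with 1 of 3 tested higher. Erythroid markers summed to 1866 to 3449 against 5219 to 8146, with 3 of 5 lower, and 9 of 13 mt- genes were lower. The part of these in the NewGene values was not tested.

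**Figure D4:**
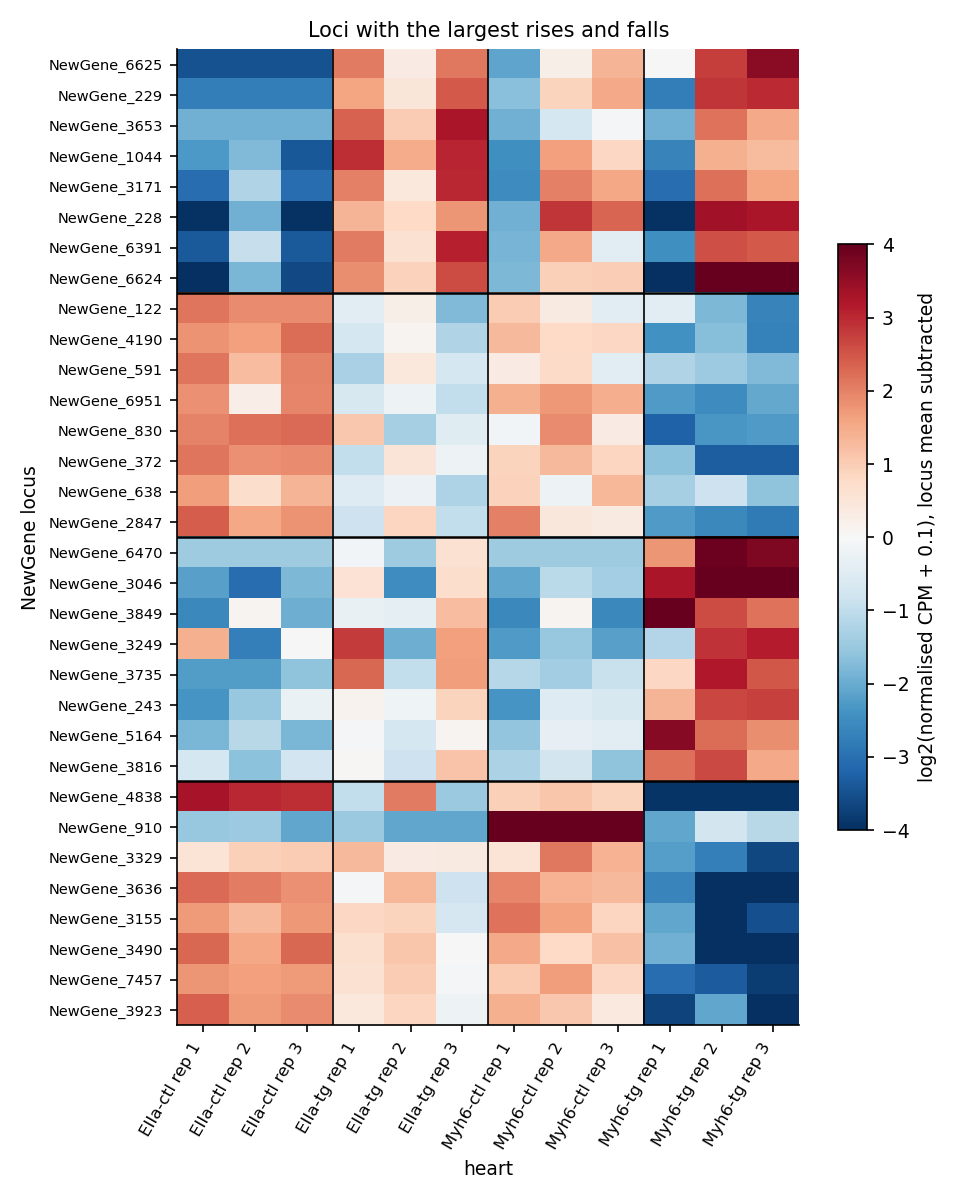
The 32 NewGene loci (rows) with the largest rises and falls among those called at an adjusted p under 0.05 with a mean of at least 1 CPM, in EIIa-tg (upper 2 blocks) and Myh6-tg hearts (lower 2 blocks), by heart (columns, 3 per group). Colour is log2 of normalised CPM plus 0.1 with the mean of the locus subtracted, limited to 4 in either direction. The EIIa-tg risers are low in Myh6-tg replicate 1 and high in replicates 2 and 3, and the Myh6-tg fallers are lowest in the 3 Myh6-tg hearts except for NewGene_910, which is high only in Myh6-ctl.

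For the loci with the largest changes in Myh6-tg hearts, the annotated gene with the most similar log2 CPM over the 12 hearts was found among 14744 genes. For NewGene_3490 it was Asb10 (r = 0.997), for NewGene_7457 Fitm1 (r = 0.994), for NewGene_3636 Msrb2 (r = 0.993) and for NewGene_5164 Sdcbp (r = 0.989). These partners were not particular, as 296, 306, 356 and 94 annotated genes had r over 0.95 with these loci in turn. The second genes were Kcnip2 (0.996), Ppif (0.993), Osgepl1 (0.99) and Tspo (0.987). For NewGene_3046 it was Cyr61 (r = 0.984), a secreted matrix-associated protein gene, and for NewGene_3923 Rpl3l (r = 0.98), a muscle form of a ribosomal protein. Within groups, after the group means were subtracted, the same r was 0.999 for NewGene_3490 and Asb10 and 0.979 for NewGene_5164 and Sdcbp. It was 0.931 for NewGene_3636 and Msrb2, 0.87 for NewGene_3046 and Cyr61 and 0.852 for NewGene_7457 and Fitm1. For NewGene_3923 and Rpl3l it was 0.8 and for NewGene_910 and Esr1 0.653. The hearts share their library and depth between both genes of a pair, and each gene was the best of many, so these are descriptions.

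Of 926 NewGene loci tested in both models, 131 were called in EIIa-tg and 154 in Myh6-tg hearts at an adjusted p under 0.05. Both lists shared 36 loci, 27.5% of the first and 23.4% of the second. Over all 14649 loci tested in both, the corresponding shares were 38.5% and 17.2%. In both models 10 were higher and 25 lower, and NewGene_3664 was higher in EIIa-tg (log2 fold change 1.14, SE 0.32, adjusted p = 0.0455) and lower in Myh6-tg hearts (-1.7, SE 0.47, adjusted p = 0.0444). Over all loci too, few of those called in both moved in opposite directions (7 of 330). The fall of NewGene_3664 was not called by limma on log2 FPKM (adjusted p = 0.0923 and 0.0928). Among the loci that rose in both, NewGene_560, NewGene_6568, NewGene_6866 and NewGene_7355 have been described, and NewGene_2688 and NewGene_5558 rose by 1.03 and 1.09 in EIIa-tg and by 1.42 and 1.36 in Myh6-tg hearts. Those 2 were chosen after their values were seen.

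**Figure D5:**
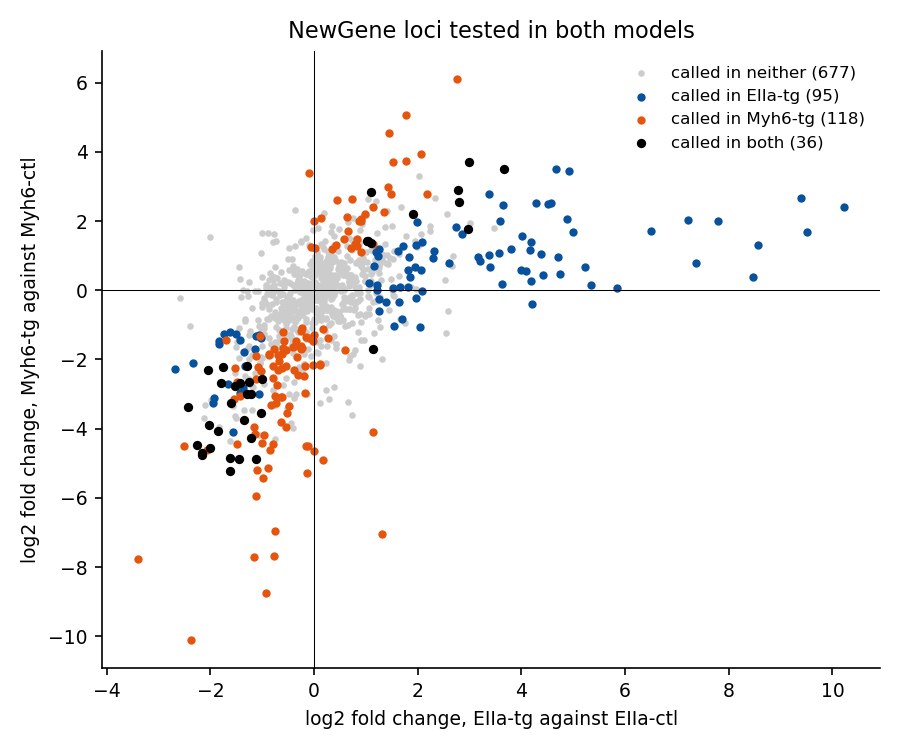
Log2 fold change of the 926 NewGene loci tested in both models, EIIa-tg against EIIa-ctl (x axis) and Myh6-tg against Myh6-ctl (y axis). Colours mark loci called at an adjusted p under 0.05 in neither (677), EIIa-tg alone (95), Myh6-tg alone (118) or both (36). Of the 36, 35 lie at the upper right or lower left. The values farthest from 0 include loci with no counts in a whole group, whose fitted fold change is no measured size.

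The difference between the changes in Myh6-tg and EIIa-tg hearts, the first minus the second, was tested over all 12 hearts. With an adjusted p under 0.01 edgeR called 5 of 1316 NewGene loci, all lower, or 0.38% against 0.622% of all 15929 loci tested (0.283% higher, 0.339% lower). Without Myh6-tg replicate 1 there were 44 (3.25%, against 3.31% of all loci), and between 1 and 5 without any other heart (11 to 89 of all loci). NewGene_6127 differed by -4.38 (SE 0.48, adjusted p = 0.0015). It had between 5.39 and 9.19 normalised CPM in 8 of the 9 hearts outside Myh6-tg, 4.23 in the other, and 0.342, 0.369 and 0.17 in Myh6-tg hearts. NewGene_7457 differed by -3.77 (SE 0.45, adjusted p = 0.00238), NewGene_1969 by -3.76 (SE 0.51, adjusted p = 0.00389), NewGene_831 by -2.4 (SE 0.34, adjusted p = 0.00465) and NewGene_797 by -1.98 (SE 0.31, adjusted p = 0.00761). NewGene_1969 had 18.2, 13.4 and 11.2 normalised CPM in Myh6-ctl and 0.79, 0.26 and 0.681 in Myh6-tg hearts. The models also differ in age, in treatment and in the cells that carry the transgene, and these cannot be told apart. At an adjusted p under 0.05 there were 44 loci (2 higher, 42 lower), 3.34% against 3.26% of all loci (1.16% higher, 2.1% lower).

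The controls of both models differ in age, Cre line and treatment, which cannot be told apart, and few NewGene loci passed the test between them. With an adjusted p under 0.01 edgeR called 2 of 1032, 1 higher and 1 lower, which is 0.194% against 0.0334% of all 14990 loci (0.02% higher, 0.0133% lower), and 136 (13.2%, against 11.3% of all loci) had an unadjusted p under 0.05. DESeq2 called 26 (1.91%, against 0.92%). The higher locus was NewGene_910, which had passed the limit of 10 counts only through Myh6-ctl. Its place in the count and share above is therefore no evidence, and no fold is given for it. Esr1 was also higher in Myh6-ctl (log2 fold change 10.98). NewGene_4838 was lower, at 2.83, 3.18 and 2.75 normalised CPM against 15.0, 12.3 and 11.7 in EIIa-ctl hearts (-2.15, SE 0.19, adjusted p = 0.00526). A difference that misses the threshold does not show equal levels.

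Few loci were limited to a group. With at least 10 counts in all 3 hearts of a group and at most 2 counts in every other heart there were 3, which these counts selected, so that no fold or test is given. NewGene_5519 had 112, 66 and 80 counts in Myh6-tg hearts and 0 in the other 9. NewGene_5802 had 18, 12 and 25 counts in Myh6-tg hearts and 2 in a single Myh6-ctl heart. NewGene_1652 had 11, 24 and 12 counts in Myh6-ctl hearts and at most 2 elsewhere. NewGene_5200 followed the replicate number instead, with 35, 27, 39 and 51 counts in replicate 1 of the 4 groups and 0 in the other 8 hearts, the same 4 hearts in which the Y-linked genes were counted.

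Loci whose running numbers follow each other had weakly related patterns at the median. Among 535 loci with a mean of at least 1 CPM, 56 pairs had numbers that follow each other, and the median r of their log2 CPM over the 12 hearts was 0.13, against 0.02 for pairs 21 to 100 apart. Some neighbours were called together. Of the 142 loci called in EIIa-tg hearts 19 had a called neighbour, in 10 pairs of which 8 moved in the same direction, among them NewGene_228 with NewGene_229, NewGene_6624 with NewGene_6625 and NewGene_830 with NewGene_831. Of the 179 called in Myh6-tg hearts 10 had one, in 5 pairs of which 3 moved in the same direction. As 13.9% and 16.2% of the NewGene loci tested were called, some neighbours are called together in any case. The number expected was not computed, so these counts show no excess. Whether neighbours by number are neighbours in the genome or parts of a single transcript was not tested.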

How the data were processed

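RNA of 12 hearts was sequenced as paired-end reads, which the study mapped to GRCm38, and the submitters' processing notes name HISAT2 2.0.4, StringTie 2.2.1 and DESeq2 and the builds GRCm39 and mm10. The authors deposited counts, whole numbers of reads per locus without normalization, and FPKM values, scaled by the authors to length and fragments. The program that made the NewGene loci is not given in the sources used here. Gene types came from GENCODE M21. Hearts were grouped by their labels, and replicates were different libraries, with no pair as close as counting noise. Loci were kept by filterByExpr, scaled by TMM and tested by the quasi-likelihood functions (glmQLFit, glmQLFTest) of edgeR 4.0.16 (R 4.3.3) over the whole table, in the 6 hearts of a comparison or, for the difference between models, all 12. Calls needed an absolute log2 fold change of at least 1 and an adjusted p (Benjamini-Hochberg, over all loci tested) under 0.01, the study's threshold, or 0.05. FPKM were tested with limma 3.58.1 on the log2(FPKM + 1) scale, on which a fold change understates the change of low loci. DESeq2 1.42.0 and the other alternatives are given at the end. The main edgeR fit, DESeq2 and limma with a pseudocount of 0.1 (on CPM) were also run on simulated counts. The other settings and the permutation test were not.

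The correlation of deviations from the group means between same-numbered hearts was 0.285, 0.184 and 0.173 in the Myh6 comparison. No label gives a shared litter or day. The main tests were unpaired in every comparison, and the replicate number entered only as a block in an alternative fit. Members and lists were chosen with earlier results of these data known. The loci tabulated by name numbered 59. A rule took the 10 most abundant by CPM and by FPKM, those with the largest rises and falls at an adjusted p under 0.05 without overlap and averaging 1 CPM or more, 3 known from earlier results, those at the limit of 10 counts and those following the replicate number. Loci called at 0.01 in the difference between models, limited to a group, or changed in opposite directions were added to these after their values were seen. A prior count of 2 was used for log2 CPM in the likeness to annotated genes. Python 3.11.15 and matplotlib 3.10.9 made the figures.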

Additional observations from a re-analysis of the deposited data

Results flagged for a closer look

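The change of 14 named NewGene loci differed between the models in a test of the difference itself, given as the log2 fold change of Myh6-tg minus that of EIIa-tg hearts, with edgeR and an adjusted p under 0.05. With 3 hearts in a group no single heart was tested as standing apart. The 5 with an adjusted p under 0.01 were NewGene_6127 (-4.38), NewGene_7457 (-3.77), NewGene_1969 (-3.76), NewGene_831 (-2.4) and NewGene_797 (-1.98).

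NewGene_1688 differed by -5.24 (SE 0.92, adjusted p = 0.0112). It had 1.59, 2.55 and 1.52 normalised CPM in EIIa-ctl, 6.63, 2.26 and 3.63 in EIIa-tg, 2.67, 7.43 and 3.87 in Myh6-ctl and 0.576, 0.0651 and 0.17 in Myh6-tg hearts, and the fall in Myh6-tg hearts was the part past the test (adjusted p = 0.0147, against 0.0893 in EIIa-tg). NewGene_3329 differed by -5.16, NewGene_4763 by -4.81 and NewGene_2244 by -4.67, all with at most 0.239 normalised CPM in Myh6-tg hearts. NewGene_3155 differed by -4.08 and NewGene_3636 by -3.59. On log2 FPKM limma, with pseudocounts of 1 and 0.1, called neither NewGene_4763 (-0.17, adjusted p = 0.729, and -1.61, 0.13) nor NewGene_3636 (-1.25, adjusted p = 0.149, and -2.33, 0.064). NewGene_3664 differed by -2.84 (SE 0.55, adjusted p = 0.0153) with a rise in EIIa-tg and a fall in Myh6-tg hearts.

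NewGene_2046 and NewGene_7579 differed in the positive direction, by 2.15 (SE 0.45, adjusted p = 0.0216) and 1.9 (SE 0.41, adjusted p = 0.0243). NewGene_2046 had between 0.951 and 2.74 normalised CPM in the 9 hearts outside Myh6-tg and 14.8, 10.7 and 12.6 in Myh6-tg hearts. NewGene_7579 had between 1.87 and 5.82 in those 9 hearts and 19.8, 13.2 and 16.8 in Myh6-tg hearts. Both rose in Myh6-tg hearts (adjusted p = 0.00269 and 0.00211) and did not pass in EIIa-tg hearts (0.433 and 0.133).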

How the results depend on the processing

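Counts of NewGene loci called at an adjusted p under 0.01 moved by over 1.5 times between settings. Counts over all loci moved as well, DESeq2 calling 845 in EIIa-tg against 0 in edgeR and 2152 in Myh6-tg against 608. Where edgeR called 0 loci in EIIa-tg, DESeq2 called 134 and edgeR without a filter on low counts 51, and a threshold of 0.05 gave 142, or 109 for loci averaging 1 CPM or more and 244 without EIIa-tg replicate 2, the last 2 chosen after seeing the data. Leaving out a heart gave 0 to 116. In Myh6-tg, against 33, DESeq2 gave 202, no filter 55, the replicate block 50, limma 75 with a pseudocount of 1 and 135 with 0.1, all 12 hearts in one fit 159, the threshold of 0.05 179, or 131 for loci averaging 1 CPM or more and 297 without Myh6-tg replicate 1, and leaving out a heart 3 to 108. Between controls, against 2, DESeq2 gave 26, the replicate block 1, limma 0 and 1, all 12 hearts in one fit 1 and leaving out a heart 0 to 4. For the difference between models, against 5, DESeq2 gave 53, no filter 9, limma with a pseudocount of 0.1 11, the threshold of 0.05 44, or 35 for loci averaging 1 CPM or more, and leaving out a heart 1 to 44. RLE factors, removal of the mt- genes and a limit of 1 CPM in at least 3 hearts kept all 4 counts within 1.5 times.

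With the replicate number as a block, the 142 calls at 0.05 in EIIa-tg became 0. Same-numbered hearts correlated by 0.06, -0.07 and -0.05 there and by 0.124, 0.06 and -0.031 between controls. The main test was unpaired in these comparisons, as in the others. In each of these comparisons only replicate 1 correlated best with its own number, and the replicate 1 hearts are those with Y-linked counts in every group. Of the values of named loci under the alternatives, 527 of 728 in EIIa-tg and 720 of 813 in Myh6-tg stayed on their side of an adjusted p of 0.05, 178 and 81 lost it and 23 and 12 gained it, and no called value changed sign. The cause of these moves was not tested. At these depths 59 loci stood at the limit of 10 counts and 66 just below it.

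The difference in the NewGene share of counts reversed in EIIa-tg without mt- genes, from 0.0178 to -0.305 percentage points, in Myh6-tg from -1.54 to 0.138 without the 10 loci with the most counts and to 0.396 without NewGene_1278, and between controls from 0.355 to -0.00244 without the 10 loci. Leaving out a heart gave -0.11 to 0.136, -1.72 to -1.28 and 0.0863 to 0.532.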
